A study of Mus musculus with 32 samples.

Results

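The comparison set untreated bone against untreated gingiva, the 2 periodontal tissues of the series, across all genes. Its members are the 4 bone and the 4 gingiva libraries labelled Co, 8 of the 32 libraries in the series, joined gene by gene through their Ensembl identifiers. All came from untreated wild-type mice of the inbred strain C57BL/6J, male and 9 weeks old, which received neither ligature nor overload. The other libraries came from mice of the same strain, sex and age with a ligature (Li), traumatic occlusion (Tra) or both (LiTra), 4 per tissue and treatment. The labels give the tissues as bone and gingiva and the treated tooth as the left second upper molar, and do not say how the tissues were dissected or whether animals were pooled. RNA was enriched for poly(A) and sequenced, and the values analysed are estimated counts for each gene.

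Alveolar bone carries the tooth sockets. Osteoblasts lay down its collagen and mineral, osteocytes sit inside it and restrain bone formation through sclerostin, and osteoclasts, which derive from the monocyte lineage, dissolve it under the control of RANKL and CSF1. Marrow spaces within the bone hold developing blood cells and the stroma that supports them. Gingiva is an oral mucosa: a stratified, partly cornified epithelium built on keratins and desmosomes, over a collagen-rich connective tissue with vessels, nerves and resident immune cells. In bulk RNA, fewer cells of a type and less RNA per cell cannot be told apart, so a level here describes the tissue piece and not a cell.

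Each bone library held 42662599 to 70793037 counts, and each gingiva library 39416738 to 42787336. Some libraries stood apart from the rest of their tissue. Transcripts of a nasal gland list took 48.3% of the counts in bone Co 3 and 15.2% in bone Co 4, against 0.46% in bone Co 1, 0.848% in bone Co 2 and 0.0758 to 0.521% in gingiva. Keratin transcripts took 1.18% of the counts in bone Co 1 and 0.00426 to 0.036% in the other bone libraries, against 10.5 to 12.3% in gingiva. Skeletal muscle transcripts took 0.0219% in gingiva Co 2 and 0.409 to 0.452% in the other gingiva libraries, against 0.00218 to 0.0509% in bone. What set these libraries apart was not tested, and counts that change when these libraries are left out are given beside the result. In bone Co 3, Bpifb9b, a gene of the nasal gland list, stood at 480100 CPM (counts scaled by TMM to a common library size), against 1029, 2790 and 94000 in bone Co 1, 2 and 4 and at most 0.333 in gingiva. Transcripts of an olfactory and respiratory list took 0.0934% of the counts in bone Co 3 and 0.0148 to 0.0209% in the other bone libraries. In gingiva they took 0.0482 to 0.0625%. The olfactory neuron gene Omp, 1 member of that list, was at 0.146 to 1.84 CPM in bone and 0.474 to 1.2 CPM in gingiva. Dspp, which encodes the dentin protein of tooth, was at 267 CPM in bone Co 1, 10.6 in bone Co 2 and at most 0.202 in the other 6 libraries. Defining markers of both labelled tissues were present: Bglap, the osteocalcin gene, in every bone library, and Krt13 and Krt5 in every gingiva library.

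**Figure D1:**
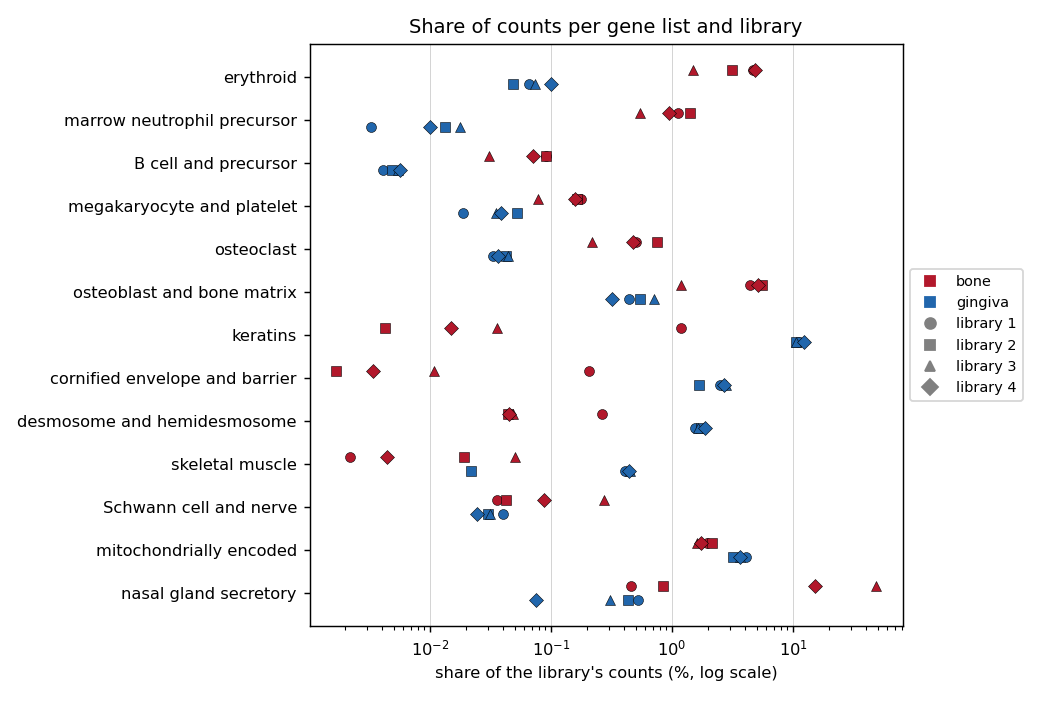
Share of each library's counts (percent, log axis) taken by 13 gene lists, with bone in red, gingiva in blue and 1 symbol per library number. Erythroid, neutrophil precursor, B cell and bone matrix shares lay higher in all bone libraries, keratin and cornified envelope shares lay higher in all gingiva libraries with bone Co 1 nearest to them, and nasal gland shares reached 48.3% in bone Co 3.

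After a filter on low counts 19355 genes were tested with edgeR's quasi-likelihood test, and 11454 had a Benjamini-Hochberg adjusted p below 0.05 (called hereafter), which is 59.2% of those tested. Of these 5775 were higher in bone (29.8%) and 5679 higher in gingiva (29.3%). A call of at least 4-fold was made for 3128 genes (16.2%), 1768 higher in bone (9.13%) and 1360 higher in gingiva (7.03%). The 4 libraries of one tissue all lay above the 4 of the other for 11029 genes (57%). So a list of genes with no tie to either tissue would have about 3 in 10 of its members called each way, and the counts of members below are read against these shares. The lists were chosen with earlier results of these data known, so a count beyond these shares is a description and not a test. Genes at least 4-fold higher in bone took 22.2 to 60.2% of the counts in bone and 1.37 to 2.18% in gingiva, and those at least 4-fold higher in gingiva took 0.584 to 2.64% and 19.9 to 23.8%. Both sets were chosen in these same libraries, so the direction of these shares was fixed in advance. The bone set includes Bpifb9b of the nasal gland list, a list that took 48.3% of the counts in bone Co 3. The median log2 difference, bone minus gingiva, was 0.026 over all genes tested. The labels do not say that the libraries of a group came from separate animals, so each p-value speaks only of the spread among these libraries, which may be technical. Tissue, dissection and deposited table changed together and cannot be told apart.

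That even split changed little under most other scalings. The share of calls on the bone side was 51% with DESeq2 size factors, 52.7% with upper quartile scaling and 53.4% with library totals. It moved with housekeeping genes. When libraries were scaled on housekeeping genes alone, 12364 genes were called, 9413 higher in bone and 2951 higher in gingiva, so that 76.1% of calls lay on the bone side in place of 50.4%, and the median of all genes moved to 0.57. With that scaling the medians of the smooth muscle, circadian clock and housekeeping lists changed sign, and in the immediate early and Wnt lists more members were called higher in bone than in gingiva. For the other lists given below the side with more calls stayed under every scaling tried. Of the genes not called, 3692 had a 95% interval that lay within 2-fold either way, so for them a larger difference is outside the interval, while the other 4209 were not resolved. Those intervals hold for the TMM scaling: under the housekeeping scaling Src (0.57, adjusted p = 0.00244), Lrp5 (0.58), Lrp6 (0.55), Dcn (0.79), Fgfr2 (0.74), Arntl (0.64), Per2 (0.72), Per3 (0.61), Kitl (0.33) and Tbp (0.44), all described below as not called, were called higher in bone. The spread between libraries, as edgeR's biological coefficient of variation, was 36.2% in bone, 29.8% without bone Co 3, and 24% in gingiva.

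The same contrast was run in the treated mice, whose libraries are separate from the untreated ones. It called 8880 of 19150 genes in Tra (46.4%), 8594 of 19551 in Li (44%) and 9159 of 19088 in LiTra (48%). Genes called in untreated mice had the same direction in Tra for 98.4% of those tested there, in Li for 96.3% and in LiTra for 89.7%. Calls in both with opposite directions numbered 0 in Tra, 10 in Li and 170 in LiTra.

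**Figure D2:**
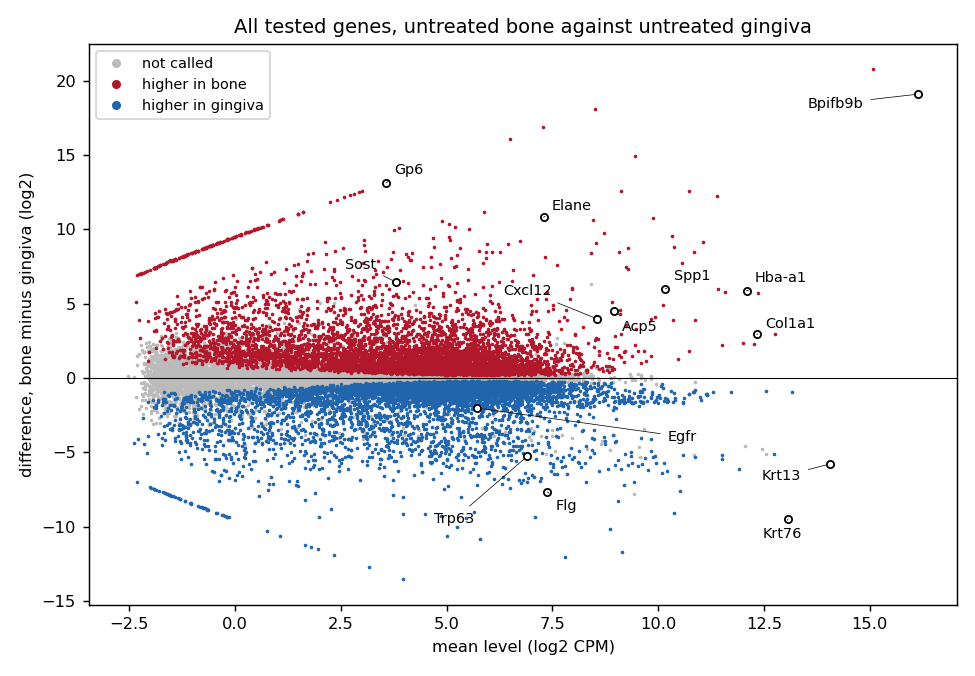
Difference between bone and gingiva (log2, vertical axis) against the mean level (log2 CPM, horizontal axis) for the 19355 tested genes, with called genes in red (higher in bone) and blue (higher in gingiva) and 14 named genes marked. Calls were nearly equal in number on both sides, 5775 and 5679, and the straight runs of points at the upper and lower left are genes at 0 in one tissue, whose fitted value is no estimate of size.

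Osteoclast genes were higher in bone almost throughout. Of 19 tested, 18 were higher in bone, 16 of them at least 4-fold, none was higher in gingiva, and the median log2 difference was 4.28. Acp5, which encodes tartrate-resistant acid phosphatase, stood at 776, 1417, 744 and 849 CPM in the 4 bone libraries and at 41.4, 33.2, 43.8 and 51.4 in gingiva. The tissues did not overlap, and the log2 difference was 4.48 ± 0.28 (SE, adjusted p = 1.2e-05). Ctsk, the collagen-degrading protease of osteoclasts, was at 1000, 1604, 836 and 1021 CPM in bone against 83.7, 99.9, 118 and 82.5 in gingiva, a difference of 3.54 ± 0.25 (adjusted p = 1.73e-05). For both genes bone Co 2 was the highest library, and all bone libraries were several times above all gingiva libraries. Itgb3, the integrin subunit of the sealing zone and also of platelets, differed by 4.53 ± 0.22, the sodium-proton exchanger gene Slc9b2 by 4.13 ± 0.24 and the carbonic anhydrase gene Car2 by 4.55 ± 0.28. Nfatc1, the transcription factor that drives osteoclast formation, differed by 2.40 ± 0.18, and Tnfrsf11a, the RANK receptor, by 2.10 ± 0.30. Src, a kinase that osteoclasts need but many cells express, was the member not called: its difference was 0.03 with a 95% interval of -0.23 to 0.28.

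Bone-forming cells and their matrix followed. Of 20 osteoblast and bone matrix genes, 17 were higher in bone, 15 at least 4-fold, with a median of 2.95. Smpd3 was higher in gingiva (-0.62 ± 0.18), a call lost without bone Co 4 or gingiva Co 4 (adjusted p = 0.0596 and 0.0564). It was lost too with library totals (adjusted p = 0.265), the housekeeping scaling (0.695) and the replicate number as a block (0.0659). A fit of all 32 libraries (adjusted p = 0.178) and leaving out bone Co 3 and 4, or 1 and 3, together (0.112 and 0.0665) also lost it. Bglap was at 1345, 1605, 961 and 1296 CPM in bone and 223, 90.1, 124 and 93.4 in gingiva (3.29 ± 0.34, adjusted p = 9.5e-05). Its reads may be shared with the near-identical Bglap2. Ibsp, bone sialoprotein, was at 1653, 2356, 1117 and 1714 CPM against 113, 79.4, 180 and 72.8 (3.94 ± 0.38, adjusted p = 6.28e-05). In both genes bone Co 3 was lowest among the bone libraries and still above each gingiva library. Spp1, osteopontin, differed by 6.00 ± 0.44, Mmp13, the collagenase of osteoblasts and hypertrophic cartilage, by 4.59 ± 0.29 and Bmp8a by 4.31 ± 0.36. The lineage transcription factors differed by less: Sp7 by 2.64 ± 0.36 (adjusted p = 0.000395) and Runx2 by 1.37 ± 0.26 (adjusted p = 0.00239), with Runx2 at 74.7 to 162 CPM in bone and 36.9 to 63.6 in gingiva. Col1a1, the main collagen of bone and of gingival connective tissue, was at 8059, 9597, 3335 and 15530 CPM in bone and 761 to 1823 in gingiva, a difference of 2.93 ± 0.50 (adjusted p = 0.00123).

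The promoters of Ibsp and Bglap, 2 of the bone matrix genes higher in bone, are shown to give the sequence beside the values. Both come from RefSeq, build GRCm38.p6, and run 5′ to 3′ on the gene's strand from 250 bases before to 50 after the listed start. In Ibsp (chr5:104299037-104299336, plus strand) capitals mark TATAAA, searched on both strands and found here as its reverse complement. In Bglap (chr3:88384417-88384716, minus strand) capitals mark TGTGGT, a core of the RUNX motif, likewise found as its reverse complement. Bglap also holds TATAAA, which is left unmarked. Of 27025 promoters in that table, 14.2% hold TATAAA and 16.9% hold TGTGGT, so either match alone is common.
Ibsp: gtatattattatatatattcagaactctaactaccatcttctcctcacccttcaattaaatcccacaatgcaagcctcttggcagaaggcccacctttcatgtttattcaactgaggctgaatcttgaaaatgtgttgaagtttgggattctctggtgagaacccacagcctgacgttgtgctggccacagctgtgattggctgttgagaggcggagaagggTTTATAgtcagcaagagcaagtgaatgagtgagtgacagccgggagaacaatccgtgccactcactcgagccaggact
Bglap: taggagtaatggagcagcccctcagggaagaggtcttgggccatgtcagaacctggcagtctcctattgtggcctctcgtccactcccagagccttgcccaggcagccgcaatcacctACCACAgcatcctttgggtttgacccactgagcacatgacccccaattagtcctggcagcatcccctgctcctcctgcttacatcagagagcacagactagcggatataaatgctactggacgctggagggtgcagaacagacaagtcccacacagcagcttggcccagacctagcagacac

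Most osteocyte genes were higher in bone. Of 12 tested, 9 were higher in bone, 5 at least 4-fold, 1 was higher in gingiva, and the median was 1.57. Sost, which encodes sclerostin, was at 26.4, 28.4, 12 and 43.8 CPM in bone and at 0, 0.095, 1.15 and 0 in gingiva (6.45 ± 1.22, adjusted p = 0.00229). Dmp1, a matrix protein of osteocytes and odontoblasts, was at 484, 574, 310 and 530 CPM against 5.36, 2.47, 33.3 and 5.72 (5.34 ± 0.88, adjusted p = 0.00111), and Mepe differed by 6.15 ± 0.98. In all 3 genes gingiva Co 3 was the highest gingiva library. Phex, the endopeptidase gene mutated in X-linked hypophosphataemia, differed by 4.22 ± 0.45. Capg, an actin-capping protein gene in the list, was higher in gingiva (-1.28 ± 0.16).

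Cartilage and ligament genes differed in part. Of 10 cartilage genes 4 were higher in bone and none in gingiva: Col2a1 (4.02 ± 0.50) and Col11a2 (4.19 ± 0.50), chains of cartilage collagens, Col9a2 (2.64 ± 0.36) and Comp (1.27 ± 0.31). Of 14 periodontal ligament and tendon genes, 8 were higher in bone, Tnmd was higher in gingiva (adjusted p = 0.0149, and 0.0508 without bone Co 4), and the median was 0.79. Tnmd was not called with library totals (adjusted p = 0.0503), the housekeeping scaling (0.0511) or without bone Co 3 and 4 together (0.0611). Postn, periostin, an abundant protein of the ligament and the periosteum, was at 6279, 5907, 2527 and 4611 CPM in bone and 866, 1340, 1294 and 715 in gingiva (2.20 ± 0.34, adjusted p = 0.000822). Tnn, tenascin W, differed by 2.85 ± 0.48. Both genes were lowest in bone Co 3 among the bone libraries. Ostn, osteocrin, was not called at -1.21 ± 0.50 (adjusted p = 0.0666), with 0.505 to 2.37 CPM in bone and 1.7 to 4.78 in gingiva. Without bone Co 2 it was called at -1.53 (adjusted p = 0.0425), and without gingiva Co 4 at -1.44 (adjusted p = 0.0378).

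Genes of enamel and the junctional epithelium, the collar that seals gingiva to the tooth, were uneven between libraries. Odam was at 274, 607, 599 and 612 CPM in gingiva and at 187, 5.59, 303 and 85.3 in bone, where it overlapped gingiva, and was not called (-1.85 ± 0.91, adjusted p = 0.113). Without bone Co 2 the difference was -1.44 (adjusted p = 0.0331). Odaph was at 57.7 to 131 CPM in gingiva and at 40.8, 0.272, 0 and 0.0674 in bone, so bone Co 1 alone came near the gingiva libraries. Odaph was not called with all libraries (-3.33 ± 1.79, adjusted p = 0.141) and was called without bone Co 1 (-9.39, adjusted p = 4.14e-05). Wdr72, an ameloblast gene, stood likewise at -1.77 ± 0.73 (adjusted p = 0.0657) and at -3.03 without bone Co 1 (adjusted p = 0.000878).

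Erythroid transcripts were higher in bone throughout. All 19 erythroid genes tested were higher in bone, 18 of them at least 4-fold, with a median of 7.33. Haemoglobin transcripts took 4.26, 2.84, 1.36 and 4.43% of the counts in bone and 0.031 to 0.0804% in gingiva. An exact permutation test of that share gave p = 0.0286, the smallest that 4 against 4 allows, and 0.1 adjusted over 7 library measures. Hba-a1, an alpha globin gene whose reads may be shared with Hba-a2, was at 9781, 6520, 6120 and 11980 CPM in bone and 124, 81, 152 and 236 in gingiva (5.86 ± 0.45, adjusted p = 2.29e-05). Every bone library was far above every gingiva library. Rhag, a subunit of the Rhesus membrane complex, was at 73.1, 45.6, 43.7 and 74.3 CPM in bone and at 0, 0, 0.144 and 0 in gingiva. Klf1, the erythroid transcription factor, was at 34.9 to 68.9 CPM in bone and 0.498 to 0.98 in gingiva (6.17 ± 0.36). Alas2, the haem synthesis enzyme of erythroblasts, was at 319 to 711 CPM in bone and 4.87 to 10.1 in gingiva (6.06 ± 0.38), and Trim10 differed by 10.03 ± 0.56.

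Granulocyte genes showed the same order. All 15 neutrophil precursor genes were higher in bone by at least 4-fold, with a median of 8.55. Elane, neutrophil elastase, which is transcribed in promyelocytes and not in circulating neutrophils, was at 259, 441, 259 and 295 CPM in bone and at 0, 0, 0.578 and 0.106 in gingiva (10.82 ± 1.17, adjusted p = 0.000118). Mpo, myeloperoxidase, was at 569, 989, 486 and 770 CPM against 0, 0.19, 1.4 and 0.185 (10.62 ± 1.33). Both genes were highest in bone Co 2 and had counts in some gingiva libraries only. Fcnb, ficolin B, differed by 11.17 ± 0.59, Cebpe, a factor of granule formation, by 8.12 ± 0.74 and Gfi1 by 6.26 ± 0.40. Ltf, lactoferrin, which granulocytes and glands both make, was at 1928 to 2485 CPM in bone and 26.5 to 116 in gingiva (4.94 ± 0.45). Of 16 genes of mature neutrophils 15 were higher in bone, 13 at least 4-fold, with a median of 4.09. S100a9, a calprotectin subunit, was at 3812, 3979, 3163 and 3122 CPM in bone and 71.5, 419, 226 and 247 in gingiva (3.87 ± 0.50, adjusted p = 0.000287). Retnlg differed by 5.80 ± 0.56 and Wfdc21 by 7.46 ± 0.50. The median of the mature list was lower than that of the precursor list, a difference that was not tested.

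B lineage genes were higher in bone almost throughout. Of 20 tested, 19 were higher in bone, 18 at least 4-fold, with a median of 6.54, and Blnk was not called. Pax5, which fixes B cell identity, was at 35.4 to 60.2 CPM against 0.0712 to 0.144 (8.84 ± 0.29, adjusted p = 3.37e-06). Genes of B cell precursors were among them: Rag1, a recombinase subunit, was at 31, 29.3, 21.3 and 13.6 CPM in bone and at most 0.237 in gingiva (7.44 ± 0.43), and Vpreb1, part of the surrogate light chain, differed by 3.80 ± 0.24. Of 12 plasma cell genes 9 were higher in bone, among them Ighm (5.98 ± 0.40) and the factor Irf4 (3.29 ± 0.28). Sdc1 and Prdm1 were higher in gingiva. Both are also expressed in stratified epithelium, and Sdc1 was at 429 to 554 CPM in gingiva and 60.5 to 107 in bone (-2.54 ± 0.20, adjusted p = 2.65e-05).

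Most platelet and progenitor genes were higher in bone. Of 16 megakaryocyte and platelet genes, 14 were higher in bone, 13 at least 4-fold, with a median of 5.48. Itga2b, the platelet fibrinogen receptor subunit, was at 163, 147, 132 and 180 CPM in bone and 9.49, 8.77, 9.67 and 11.6 in gingiva (3.98 ± 0.14, adjusted p = 3.57e-06). Gp6, the platelet collagen receptor, was at 24, 23.8, 25.7 and 21.4 CPM in bone and at 0 in all gingiva libraries, at least 1290-fold higher in bone against a floor of 3 counts over the gingiva group. Pf4, a platelet chemokine, differed by 4.21 ± 0.22. Of 16 stem and progenitor genes 11 were higher in bone and 2 in gingiva. Myb was at 80.2 to 116 CPM against 5.09 to 7.1 (3.90 ± 0.17), Tal1 differed by 5.15 ± 0.25 and Kit by 1.91 ± 0.20. Gfi1b, a factor of erythroid and megakaryocyte precursors, was at 7.53 to 23.2 CPM in bone and at 0 in all gingiva libraries, at least 890-fold higher against the same floor.

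The marrow niche was marked by its chemokine. Of 15 stroma and niche genes, 12 were higher in bone, 6 at least 4-fold, none in gingiva, with a median of 1.82. Cxcl12, which holds blood progenitors in the marrow, was at 719, 760, 555 and 787 CPM in bone and 41.6, 46.1, 52.1 and 38.1 in gingiva (3.99 ± 0.17, adjusted p = 5.32e-06). Vcam1, an adhesion molecule of the same stroma, was at 157, 145, 132 and 167 CPM against 10.3, 8.17, 10.3 and 9.27 (3.98 ± 0.12, adjusted p = 2.47e-06). Bone Co 3 was the lowest bone library for both genes and still more than 10 times every gingiva library. Kitl, the ligand of Kit, did not pass, at 32.2 to 41.6 CPM in bone and 39.3 to 50.1 in gingiva, with a 95% interval of -0.46 to 0.04. Adipoq, adiponectin, was at 17.7 to 27.7 CPM in bone and at 3.42, 0.737, 0.987 and 0.874 in gingiva (3.86 ± 0.53). Of 13 adipocyte genes 3 were higher in bone, Adipoq among them, 1, Cidea, was higher in gingiva (-4.18 ± 0.77) and 9 were not called.

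Other leukocyte lists were mixed. Of 22 T and NK cell genes, 13 were higher in bone and 3 in gingiva, with a median of 1.70. Lck, a T cell kinase, was at 4.86 to 9.32 CPM in bone and 0.794 to 1.78 in gingiva (2.60 ± 0.33), and the cytotoxic granule genes Nkg7 (4.93 ± 0.38) and Gzma (5.26 ± 0.67) were higher in bone too. Trbc2, Tcrg-C1 and Ctla4 were the 3 higher in gingiva, the gamma chain gene Tcrg-C1 at 1.12 to 3.35 CPM there and 0.404 to 0.703 in bone (-1.95 ± 0.39, adjusted p = 0.00281). Of 19 monocyte and macrophage genes, 15 were higher in bone and Cd14 and Lyve1 in gingiva. Csf1r, the CSF1 receptor, was at 191, 287, 163 and 223 CPM in bone and 23.8, 27.6, 32.8 and 26.8 in gingiva (2.96 ± 0.20, adjusted p = 1.49e-05). Ly6c2, a marker of inflammatory monocytes, differed by 6.51 ± 0.47, and Spic, a factor of red pulp and marrow macrophages, by 4.71 ± 0.33. Of 16 dendritic and Langerhans cell genes, 8 were higher in bone and 3 in gingiva. The Langerhans cell lectin Cd207 was higher in gingiva, at 2.66, 2.78, 3.1 and 4 CPM against 0.644, 0.215, 0 and 0.449 (-3.21 ± 0.77, adjusted p = 0.00724), and the plasmacytoid marker Siglech higher in bone (3.12 ± 0.36). Of 13 mast cell and basophil genes 7 were higher in bone, 1 was higher in gingiva and 5 were not called. Mcpt8, a basophil protease, was at 15.2, 11.3, 11.5 and 14.2 CPM in bone and at 0 in all gingiva libraries, at least 705-fold higher. Prss34, also of basophils, differed by 7.28 ± 0.67, Hdc, of histamine synthesis, by 2.97 ± 0.30 and the factor Gata2 by 1.92 ± 0.17. Mrgprb2, a receptor of connective tissue mast cells, was higher in gingiva at low levels (-3.13, 95% interval -5.42 to -0.84, adjusted p = 0.0256) and was not called without gingiva Co 1 or 3 (adjusted p = 0.068 and 0.0558). Nor was it called with the replicate number as a block (adjusted p = 0.0746), in a fit of all 32 libraries (0.0507) or without a filter on low counts (0.0551). Leaving out bone Co 3 and 4, or 1 and 3, together gave adjusted p = 0.0722 and 0.062.

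**Figure D3:**
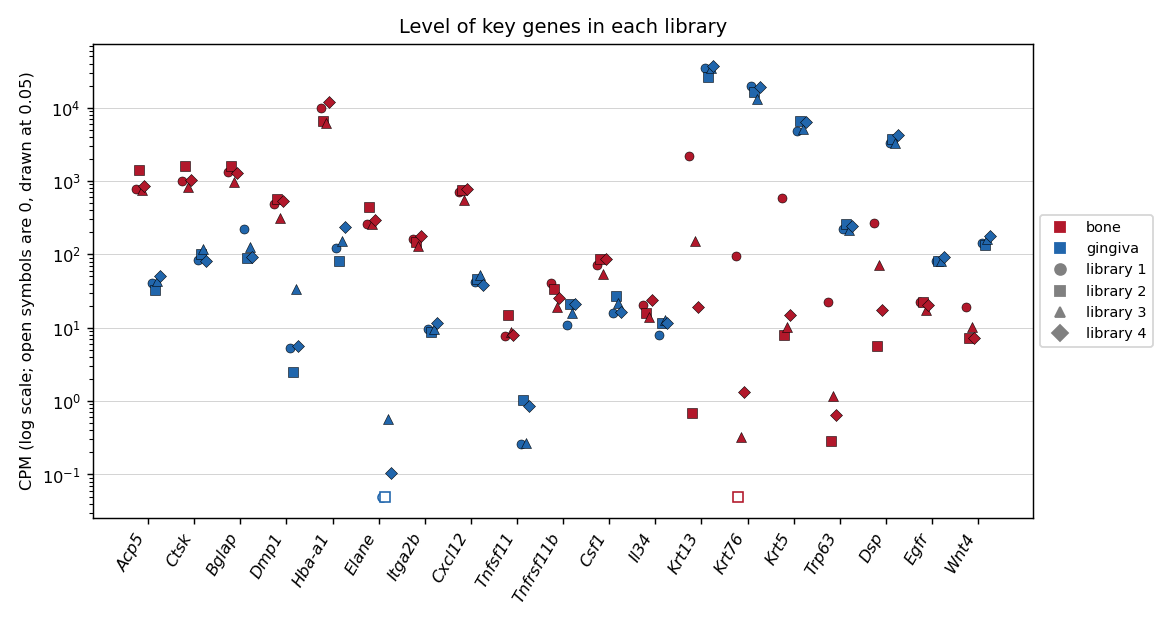
CPM of 19 genes in every library on a log axis, bone in red and gingiva in blue with 1 symbol per library number, and open symbols for libraries at 0. Tnfrsf11b is the gene of this set whose tissues overlap, and bone Co 1 is the bone library nearest to gingiva for Krt13, Krt76, Krt5, Trp63 and Dsp.

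Gingiva was marked first by keratins. By counts Krt13, the keratin of non-cornified mucosa, was at 34690, 26390, 34230 and 37560 CPM in gingiva and at 2226, 0.68, 153 and 19.3 in bone, and Krt76, a keratin of the oral epithelium, at 19960, 16620, 13160 and 19110 against 95, 0, 0.329 and 1.35. The differences were -5.79 ± 2.01 (adjusted p = 0.0357) and -9.48 ± 2.69 (adjusted p = 0.0158). The tissues did not overlap in either gene, and the large errors came with a bone group in which Co 1 stood far above Co 2. Krt13 lost its call when any library other than bone Co 1 or bone Co 2 was left out (adjusted p 0.0556 to 0.0759). Of 21 keratins, 12 were higher in gingiva, 11 at least 4-fold, none in bone, and the median was -5.02. Without bone Co 1, the library with 1.18% keratin counts, 16 of 21 were called, and without bone Co 4 or any 1 of the gingiva libraries 6 or 7. Krt14, the basal partner of Krt5, was not called with all libraries (-4.80 ± 1.90, adjusted p = 0.0579), at 8970 to 12580 CPM in gingiva and 1529, 5.3, 6.65 and 16.4 in bone, and was called without bone Co 1 (-10.18, adjusted p = 2.05e-05). Krt5 differed by -5.20 ± 1.58, Krt10, of cornified layers, by -6.18 ± 1.80, Krt15, of basal cells, by -7.18 ± 1.94 and Krt80 by -4.42 ± 0.49 (adjusted p 0.000127 to 0.021). Without bone Co 3 and 4 together Krt76, Krt5 and Krt15 were not called (adjusted p 0.0564 to 0.0668). Krt8 and Krt18, the keratins of simple and glandular epithelium, were not called, at 1.62 to 50.7 and 1.3 to 76.4 CPM in gingiva and up to 60.8 and 106 in bone Co 3, though Krt8 was called without bone Co 3 and 4 together (-6.13, adjusted p = 0.0159).

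Cornified envelope genes had the lowest median of the lists. Of 27 tested, 20 were higher in gingiva, each by at least 4-fold, none in bone, with a median of -5.13. The count was 27 of 27 without bone Co 1 and 8 without bone Co 3 and 4 together. Flg2, a filaggrin-like protein gene, was at 9.3, 6.65, 6.16 and 7.39 CPM in gingiva and at 0.122, 0, 0 and 0 in bone (-7.70 ± 0.97, adjusted p = 0.000258). Tgm3, the transglutaminase that crosslinks the envelope, was at 1506, 1087, 1421 and 1468 CPM against 30.1, 0.612, 10.5 and 2.09 (-6.98 ± 1.24, adjusted p = 0.0016). Lor, loricrin, was at 2101, 1597, 2617 and 3026 CPM against 105, 0.204, 16 and 2.87 (-6.23 ± 1.67, adjusted p = 0.0123, and 0.0726 without bone Co 3 and 4 together). In each of these genes bone Co 1 was the highest bone library. Cdsn, corneodesmosin, differed by -6.48 ± 1.39, Flg, filaggrin, by -7.66 ± 2.04 and Tchh, trichohyalin, by -2.74 ± 0.34.

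Promoters are given for Krt76 and Lor, 2 of the genes with the largest gingival levels in these lists, on the same build and in the same window. In Krt76 (chr15:101892871-101893170, minus strand) capitals mark TATAAA, and in Lor (chr3:92083093-92083392, minus strand) they mark TGANTCA, the AP-1 motif. Lor also holds TATAAA, which is left unmarked. Of the 27 cornified envelope genes 25 had a promoter in the table, 12 of them with TATAAA and 12 with TGANTCA. Over all 27025 promoters the shares were 14.2% and 7.93%. The 2 other motifs counted, AGATAA of GATA factors and TGTGGT, were in 3 and 1 of the 25, against 11.4% and 16.9% of all promoters. Of 14 neutrophil precursor genes with a promoter, 4 held TATAAA, 2 AGATAA, 2 TGTGGT and 0 TGANTCA. Several of the 25 genes are neighbouring copies that share sequence, so these counts are a description and not a test, and a match is not a site.
Krt76: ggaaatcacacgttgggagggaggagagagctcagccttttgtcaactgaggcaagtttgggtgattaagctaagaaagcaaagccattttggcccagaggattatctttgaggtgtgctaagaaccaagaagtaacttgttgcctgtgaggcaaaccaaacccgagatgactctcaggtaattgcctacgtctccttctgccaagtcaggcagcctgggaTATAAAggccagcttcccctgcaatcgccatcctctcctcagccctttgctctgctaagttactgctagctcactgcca
Lor: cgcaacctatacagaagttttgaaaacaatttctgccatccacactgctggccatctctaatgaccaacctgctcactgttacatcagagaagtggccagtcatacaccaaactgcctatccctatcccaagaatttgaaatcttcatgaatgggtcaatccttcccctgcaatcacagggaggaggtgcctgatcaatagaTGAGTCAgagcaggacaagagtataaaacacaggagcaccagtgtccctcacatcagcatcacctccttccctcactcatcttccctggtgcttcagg

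Junction genes and the factors of epithelial identity went the same way. Of 21 desmosome and hemidesmosome genes, 18 were higher in gingiva, 16 at least 4-fold, with a median of -4.41. Without bone Co 3 and 4 together 10 were called. Dsp, desmoplakin, was at 3309, 3801, 3274 and 4242 CPM in gingiva and 267, 5.59, 70.8 and 17.6 in bone (-5.34 ± 1.16, adjusted p = 0.00459). Dst, dystonin, which anchors basal keratin to the hemidesmosome and is also made in nerve and muscle, was at 804, 777, 778 and 820 CPM against 214, 189, 163 and 163 (-2.12 ± 0.12, adjusted p = 1.06e-05). The narrow error of Dst came with an even bone group. Jup, plakoglobin, differed by -3.56 ± 0.32, Itga6, the hemidesmosomal integrin, by -1.73 ± 0.27 and Pkp3 by -4.65 ± 0.79. Of 20 tight junction and adhesion genes 13 were higher in gingiva and none in bone, among them Cldn23 (-4.26 ± 0.61), the adhesion receptor genes Cxadr (-2.46 ± 0.49) and F11r (-2.03 ± 0.27), and Marveld2 (-1.90 ± 0.33). Of 22 epithelial transcription factors, 19 were higher in gingiva, 18 at least 4-fold, none in bone, with a median of -3.51. Trp63, the master factor of stratified epithelium, was at 223, 260, 213 and 244 CPM in gingiva and 22.4, 0.283, 1.17 and 0.651 in bone (-5.25 ± 1.41, adjusted p = 0.0123, and 0.054 without bone Co 3 and 4 together). Klf4, a factor of terminal differentiation, was at 237, 231, 231 and 319 CPM against 54.2, 44.7, 31.5 and 39.8 (-2.58 ± 0.19, adjusted p = 2.22e-05). Klf5 differed by -3.45 ± 0.31, Tfap2c by -4.83 ± 0.84 and Ovol1 by -4.48 ± 0.82.

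Defence and alarm genes of epithelium were also higher in gingiva. Of 21 epithelial defence genes, 13 were higher in gingiva and 4 in bone, with a median of -3.66. Slpi, the secretory leukocyte protease inhibitor, was at 1761, 969, 2062 and 2104 CPM in gingiva and 240, 49.4, 53.6 and 54.2 in bone (-4.12 ± 0.64, adjusted p = 0.000811), and S100a16 differed by -3.84 ± 0.42. Of the 4 higher in bone, Camp, cathelicidin (9.05 ± 1.12), and Lcn2, lipocalin 2 (5.11 ± 0.64) are also made by neutrophil precursors. Of 15 genes of the interleukin 1 family 11 were higher in gingiva, 7 without bone Co 3 and 4 together, with a median of -2.23. Il1a was at 32.6, 33.6, 46.9 and 50.7 CPM in gingiva and 9.8, 3.11, 3 and 3.44 in bone (-3.08 ± 0.44, adjusted p = 0.000475), and Il18 differed by -3.35 ± 0.50. Bone Co 1 was the highest bone library for both. The receptor genes parted: Il1rl2, which binds interleukin 36, was higher in gingiva (-1.76 ± 0.25), and Il1rl1, the interleukin 33 receptor, higher in bone (1.87 ± 0.22).

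**Figure D4:**
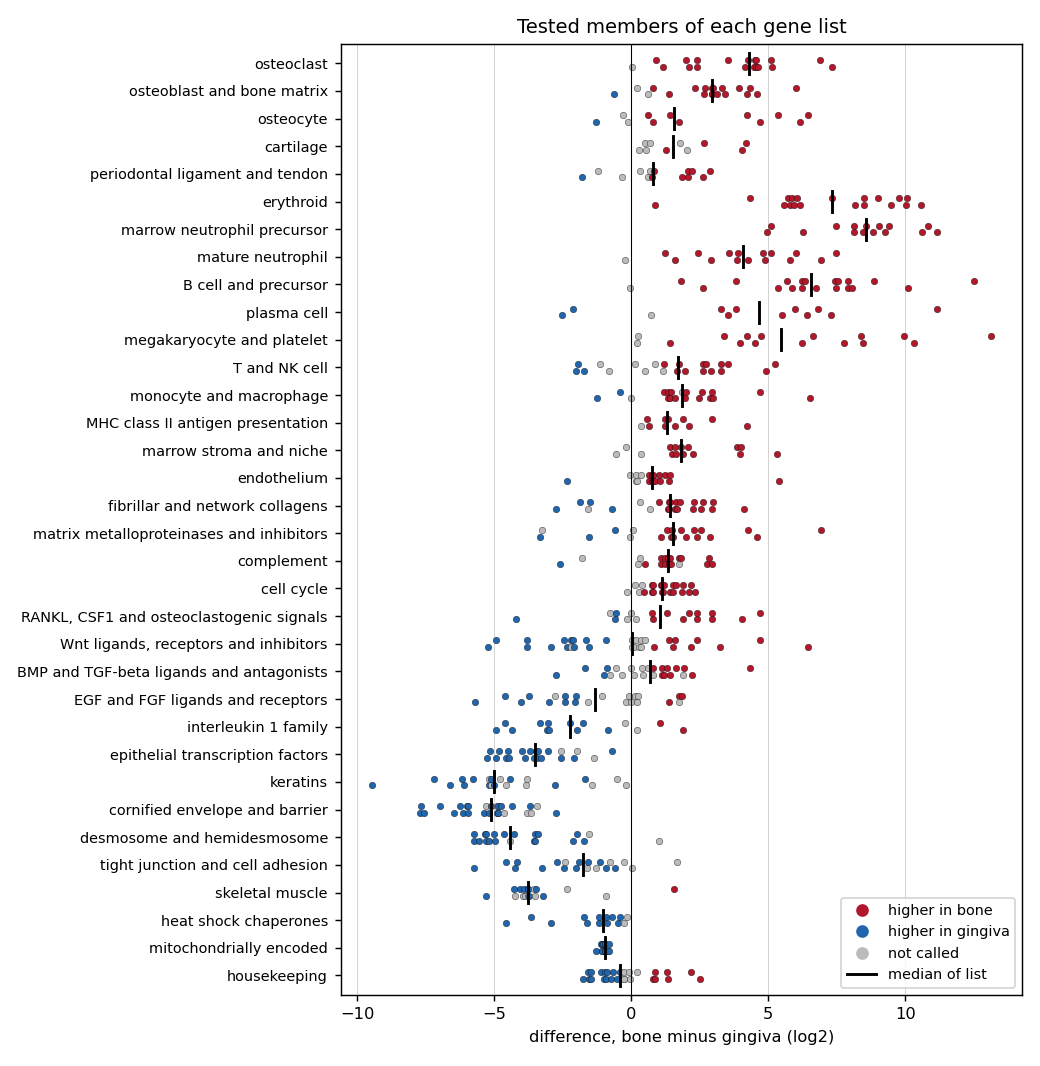
Difference between bone and gingiva (log2, horizontal axis) for every tested member of 34 gene lists, coloured by call, with a black bar at each list's median. Medians run from 8.55 for neutrophil precursor genes to -5.13 for cornified envelope genes, and the Wnt list has members on both sides of 0 with a median of 0.04.

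Connective tissue genes leaned to bone. Of 23 fibrillar and network collagens, 16 were higher in bone and 4 in gingiva, with a median of 1.41. Col3a1, of soft connective tissue and healing bone, was at 9539, 10070, 2755 and 10150 CPM in bone and 1231, 2188, 2265 and 1036 in gingiva (2.27 ± 0.47, adjusted p = 0.00347). The ratio of Col1a1 to Col3a1 counts was 1.14 ± 0.31 in bone (SD, n = 4, exact permutation p = 0.0286) and 0.721 ± 0.11 in gingiva. Col22a1, of tissue junctions, differed by 4.10 ± 0.45. Col8a1, a network collagen, was higher in gingiva at 57 to 67.7 CPM against 15.3 to 26.9 (-1.52 ± 0.18, adjusted p = 0.000163). Of 22 proteoglycan and matrix assembly genes, 12 were higher in bone and Fbln2 in gingiva. Tnc, tenascin C, was at 345 to 750 CPM in bone and 84.2 to 129 in gingiva (2.38 ± 0.27), while Dcn, decorin, overlapped at 720 to 873 and 520 to 809 CPM, with an interval of -0.12 to 0.61. Of 20 metalloproteinase and inhibitor genes, 14 were higher in bone and 3 in gingiva. Mmp9, gelatinase B of osteoclasts and neutrophils, was at 884, 1415, 728 and 1138 CPM in bone and 25.9, 67, 66.6 and 55.4 in gingiva (4.28 ± 0.38, adjusted p = 4.16e-05). Adamts5, an aggrecanase, differed by 2.42 ± 0.17.

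Endothelial genes leaned to bone. Of 19 tested, 13 were higher in bone, 1 of them by 4-fold, and Prox1 was higher in gingiva, with a median of 0.77. Stab2, a scavenger receptor of sinusoids, was at 28.8, 32.2, 23.1 and 41.7 CPM in bone and 0, 1.16, 0.818 and 1.03 in gingiva (5.38 ± 0.81, adjusted p = 0.00067). Prox1, the factor that specifies lymphatic vessels, was at 5.34, 4.68, 6.14 and 4.64 CPM in gingiva and 1.27, 0.703, 1.28 and 0.898 in bone (-2.33 ± 0.26, adjusted p = 0.00014). Cdh5, the cadherin of all endothelium, differed by 1.23 ± 0.15 and Vwf by 1.43 ± 0.13. Smooth muscle and pericyte genes gave 3 higher in bone and 1 in gingiva of 11, the bone side near the 29.8% of all genes tested. Their median of -0.38 became 0.17 under the housekeeping scaling.

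Skeletal muscle and nerve genes followed single libraries. Of 18 muscle genes 9 were higher in gingiva, with a median of -3.76. Actn3 was higher in bone (1.56 ± 0.51, adjusted p = 0.0278), a call lost without bone Co 2 or 4 or gingiva Co 2 or 4 (adjusted p 0.0609 to 0.078). It was lost too by limma voom (adjusted p = 0.0558), with the replicate number as a block (0.127) and in a fit of all 32 libraries (0.14). Without bone Co 3 and 4 together its adjusted p was 0.0526. Ryr1, the calcium release channel of muscle, was at 65.2, 8.1, 87 and 83.5 CPM in gingiva and 3.24, 4.04, 15.9 and 3.3 in bone, so gingiva Co 2 lay within the range of bone (-3.22 ± 0.84, adjusted p = 0.0107). The count was 15 without bone Co 3, 13 without gingiva Co 2, 6 without bone Co 1, and 3 to 5 without bone Co 2, bone Co 4 or gingiva Co 1, 3 or 4. Of 15 Schwann cell and nerve genes 5 were higher in bone, near the 29.8% of all genes tested. The count was 2 or 3 without bone Co 3, bone Co 4 or gingiva Co 2, 3 or 4, and 11 and 9 without bone Co 1 and bone Co 2. Their median of 2.30 was 0.71 without bone Co 3 and 0.02 without bone Co 3 and 4 together, the libraries with the most nasal gland counts. Of the nasal gland list itself 10 of 18 genes were higher in bone and 2 in gingiva, and 6 were higher in bone without bone Co 3, gingiva Co 1 or gingiva Co 3. In the olfactory and respiratory list 7 of 14 genes were higher in bone, 4 of them at least 4-fold, and 3 were higher in gingiva. Mucosal gland genes were uneven in gingiva: Dcpp1, a demilune cell protein gene, was at 191, 54.2, 196 and 0 CPM there and at 0, 0, 0.402 and 0 in bone, with gingiva Co 4 at 0.

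Of 19 complement genes, 14 were higher in bone and Masp1 in gingiva, with a median of 1.35. C3, the central component, was at 248, 370, 251 and 281 CPM in bone and 41.2, 41.4, 47.3 and 40.2 in gingiva (2.75 ± 0.15, adjusted p = 9.29e-06). Masp1, a lectin pathway protease, was at 13.6 to 19.6 CPM in gingiva and 1.97 to 3.38 in bone (-2.60 ± 0.21). Chemokine genes parted: of 29, 12 were higher in bone, among them Ccl9 (2.92 ± 0.18) and Ccl6 (1.77 ± 0.12), and 5 in gingiva, including Cxcl5 (-3.58 ± 0.94) and Ccl22 (-2.49 ± 0.71), both not called without bone Co 3 and 4 together (adjusted p = 0.0729 and 0.0629), and Ccl22 not called with the replicate number as a block (adjusted p = 0.0596). MHC class II genes gave 10 of 11 higher in bone with a median of 1.32, led by H2-Ob of B cells (4.21 ± 0.35). Of 22 interferon response genes 7 were higher in bone, 1 was higher in gingiva and 14 were not called, with a median of 0.49. Of all genes tested 29.8% were higher in bone, so the bone side of this list lay near that share. Without bone Co 4 or gingiva Co 3, 4 were higher in bone. Rsad2, viperin, the member furthest to the bone side, was at 68.9, 53.2, 51.7 and 89.4 CPM in bone and 1.49, 1.64, 2.07 and 3.63 in gingiva (4.90 ± 0.35, adjusted p = 1.8e-05).

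The signals that set osteoclast number differed in size. Tnfsf11, which encodes RANKL, was at 7.68, 14.8, 8.77 and 7.97 CPM in bone and 0.261, 1.02, 0.265 and 0.848 in gingiva (4.03 ± 0.54, adjusted p = 0.000341). Tnfrsf11b, the decoy receptor osteoprotegerin that blocks it, was at 40.6, 33.4, 19.2 and 25.3 CPM against 11, 21.3, 16 and 20.8, and the tissues overlapped. Its difference was 0.78 ± 0.28 (adjusted p = 0.0413), and the call was lost without bone Co 1, 2 or 4 or gingiva Co 1, 3 or 4 (0.58 to 0.90, adjusted p 0.0527 to 0.105). The call was also lost with library totals (adjusted p = 0.0905), without a filter on low counts (0.0534) and with the replicate number as a block (0.0951). The ratio of Tnfsf11 to Tnfrsf11b counts was 0.189, 0.442, 0.458 and 0.315 in bone and 0.0237, 0.0479, 0.0166 and 0.0408 in gingiva (exact permutation test, p = 0.0286, the smallest possible, and 0.0286 adjusted over 3 ratios). Csf1 was at 72.6, 87.2, 53.9 and 85.8 CPM in bone and 16, 27.1, 22 and 16.4 in gingiva (1.88 ± 0.22, adjusted p = 0.000181). Il34, the second ligand of the CSF1 receptor, was at 20.3, 15.9, 14 and 23.7 CPM against 8.04, 11.5, 12.6 and 11.5 (0.77 ± 0.20, adjusted p = 0.0121), and did not pass when libraries were scaled by their totals (0.87, adjusted p = 0.0581). The Csf1 to Il34 count ratio was 4.13 ± 0.91 in bone and 1.89 ± 0.40 in gingiva (SD, n = 4, exact permutation p = 0.0286). Of the 18 genes in this list 11 were higher in bone and 3 in gingiva, with a median of 1.04. Tyrobp, an adaptor of osteoclast costimulation, differed by 2.94 ± 0.20.

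Wnt genes lay on both sides. Of 31 tested, 9 were higher in bone and 13 in gingiva, with a median of 0.04. The bone side of this list lay near the 29.8% of all genes tested. Wnt4, a ligand of stratified epithelium, was at 144, 135, 163 and 176 CPM in gingiva and 18.9, 7.3, 10.3 and 7.3 in bone (-3.82 ± 0.34, adjusted p = 4.34e-05), and Wnt3a, Wnt5a, Wnt7b, Wnt10a and Wnt11 were called the same way. Wnt5b and Wnt10b were higher in bone. The receptor Fzd10 (-5.21 ± 0.44) and Lgr4, the receptor of R-spondins (-1.66 ± 0.13), were higher in gingiva. Inhibitors were found on both sides: Sfrp4, a secreted Wnt binder, was at 68.2, 117, 73.1 and 72 CPM in bone and 10, 6.56, 8.95 and 9.35 in gingiva (3.24 ± 0.22, adjusted p = 1.59e-05), Sost, Dkk1 and Wif1 were higher in bone too, and Dkk2 and Sostdc1 higher in gingiva. The coreceptors Lrp5 and Lrp6 were not called, with intervals of -0.28 to 0.35 and -0.31 to 0.33.

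Of 24 BMP and TGF-beta genes 10 were higher in bone and 4 in gingiva. Tgfb1, which bone matrix stores, was at 148, 163, 80.2 and 201 CPM in bone and 20.5, 34.3, 37.6 and 34.1 in gingiva (2.23 ± 0.30, adjusted p = 0.000382). Bmp7 was at 36.7 to 51.6 CPM in gingiva and 4.67 to 9.68 in bone (-2.76 ± 0.26, adjusted p = 5.51e-05), and the receptor Bmpr1a differed by -0.98 ± 0.12. EGF and FGF genes leaned to gingiva, with 9 of 22 higher there and 3 in bone, and a median of -1.34. Egfr was at 82.2, 81.9, 82 and 92.6 CPM in gingiva and 22.6, 22.8, 17.7 and 20.5 in bone (-2.02 ± 0.10, adjusted p = 6.95e-06). Its ligands Tgfa (-2.40 ± 0.43) and Hbegf (-2.42 ± 0.35) and its partner Erbb2 (-2.06 ± 0.23) were higher in gingiva as well. Fgfr1 and Fgf1 were among the 3 higher in bone, and Fgfr2 was not called, with an interval of -0.14 to 0.54, but was called without bone Co 3 (0.33, adjusted p = 0.0274). In the Hedgehog and Notch list 8 of 20 were higher in bone and 6 in gingiva, the gingiva side near the 29.3% of all genes tested. The Notch ligands Jag1 (-1.31 ± 0.09) and Jag2 (-3.29 ± 0.28) and the target Hes1 (-1.92 ± 0.14) were higher in gingiva, and the target Hey1 in bone (1.84 ± 0.18).

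Patterning factors of the jaw gave 9 of 24 higher in bone and 7 in gingiva, the gingiva side near the 29.3% of all genes tested. Dlx6 differed by 1.78 ± 0.20 and Lhx8 by 1.37 ± 0.21. Tfap2b, a factor of neural crest and its derivatives, was at 61 to 96.6 CPM in gingiva and 9.65 to 26.4 in bone (-2.06 ± 0.30). Hox genes are silent in the neural crest that forms the jaws and active in blood precursors. Of 23 listed, 17 fell below the filter on low counts. Of the 6 tested, Hoxa7, Hoxa9 and Hoxb4 were higher in bone and Hoxd8 and Hoxd9 in gingiva. Hoxa9 was at 1.45, 1.08, 0.914 and 1.12 CPM in bone and at 0 in all gingiva libraries, at least 63.4-fold higher, and Hoxd8 was at 4.74, 1.93, 4.26 and 3.34 CPM in gingiva and 1.2, 0.895, 0.694 and 0.898 in bone (-1.94 ± 0.34). All of these were low by counts.

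The cell cycle, mitochondrially encoded, heat shock and hypoxia lists had medians from -1.05 to 1.13, with single members from -4.57 to 8.95. Of 23 cell cycle genes, 19 were higher in bone, 3 at least 4-fold, none in gingiva, with a median of 1.13. Mki67, the marker of dividing cells, was at 662, 575, 477 and 618 CPM in bone and 92.1, 165, 134 and 155 in gingiva (2.09 ± 0.20, adjusted p = 6.86e-05). Rrm2, of nucleotide synthesis, differed by 2.19 ± 0.27. Birc5, survivin, was higher in bone in untreated mice (1.64 ± 0.18, adjusted p = 0.000134) and lower in bone in LiTra mice (-0.40 ± 0.14, adjusted p = 0.0427), a change between treatments that was not tested. Of the other named genes Kif11, a mitotic motor (1.42 in untreated mice, -0.29 in LiTra, adjusted p = 0.0496), Ccl6 (-0.58 in LiTra, adjusted p = 0.0442) and Smpd3 (1.55 in LiTra, adjusted p = 0.00265) were likewise called on opposite sides. The call of Smpd3 in untreated mice was lost under several other settings, given above. All 13 mitochondrially encoded genes were higher in gingiva, with a median of -0.97. They took 1.62 to 2.15% of the counts in bone and 3.2 to 4.07% in gingiva (exact permutation p = 0.0286, and 0.1 adjusted over 7 measures). Under the housekeeping scaling 6 of the 13 were called. Of 14 heat shock chaperones 12 were higher in gingiva and none in bone, with Hspa1a at 48, 54.5, 65.7 and 74.7 CPM there and 9.75, 6.12, 10.1 and 5.97 in bone (-2.93 ± 0.24, adjusted p = 2.94e-05). Hspe1, a mitochondrial chaperonin, differed by -1.63 ± 0.09. Of 24 hypoxia and glycolysis genes 15 were higher in gingiva, 9 under the housekeeping scaling, among them Tpi1 (-1.72 ± 0.10), and 4 in bone, among them Slc2a3, a glucose transporter of blood cells, at 114 to 146 CPM against 7.34 to 10.6 (3.88 ± 0.15, adjusted p = 4.17e-06).

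Of 18 clock genes 2 were higher in bone and 6 in gingiva, the gingiva side near the 29.3% of all genes tested. Clock itself was at 143, 149, 150 and 171 CPM in gingiva and 46.9, 34.3, 40.1 and 28.1 in bone (-2.04 ± 0.16, adjusted p = 2.65e-05). Per1 was higher in bone (0.77 ± 0.11), and Arntl, Per2, Per3 and Cry2 were not called, Per2 with an interval of -0.14 to 0.51, though Cry2 was called without bone Co 3 and 4 together (-0.43, adjusted p = 0.0427). The list's median of -0.18 became 0.36 under the housekeeping scaling, with 7 higher in bone and 2 in gingiva. Immediate early genes, which rise within minutes of handling or stimulation, gave 4 of 23 higher in bone and 13 in gingiva. Under the housekeeping scaling the counts were 7 and 6, and the median of -0.60 became -0.06.

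Genes often used as references were themselves uneven. Of 27 housekeeping genes 7 were higher in bone and 14 in gingiva, with a median of -0.43 that became 0.11 under the scaling built on them. Hprt, of purine salvage, was at 53.5, 48.7, 45.3 and 47.8 CPM in bone and 179, 159, 157 and 170 in gingiva (-1.77 ± 0.09, adjusted p = 6.53e-06). The ribosomal protein gene Rpl13a (-1.48 ± 0.12) and the proteasome subunit Psmb4 (-1.11 ± 0.08) were higher in gingiva. Tbp, the TATA-binding protein, was at 27 to 32.3 CPM in bone and 30.2 to 33.6 in gingiva and was not called, with an interval of -0.29 to 0.10.

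Among called genes without overlap and with a mean log2 CPM of at least 3, those furthest to the bone side were Bpifb9a (20.75 ± 3.19), Bpifb9b (19.09 ± 2.81), 2310003L06Rik, Cabs1, Pip, a glandular secretory gene, and Bpifb5 (14.91 ± 2.78). Pip was at 1.01, 2.88, 637 and 80.9 CPM in bone and at 0 in all gingiva libraries. Each of these 6 genes, and A2ml1 (12.55 ± 2.90), was highest in bone Co 3 and next in bone Co 4, the libraries with the most nasal gland counts, and none of the 7 was called by limma voom with quality weights (adjusted p 0.163 to 0.504). The blood cell genes Gp6, Gfi1b, Fcnb, Elane, Mpo and Rhag came next, with A2ml1 between Gfi1b and Fcnb, followed by Tubb1, the platelet tubulin (59.7 to 69.7 CPM in bone, at most 0.193 in gingiva), and Rhd, of the Rhesus complex (46.6 to 97 CPM against at most 0.19). On the gingiva side, Spink7, a protease inhibitor of mucosal epithelium, was at 21.6, 7.6, 22.8 and 19.1 CPM in gingiva and at 0 in all bone libraries, at least 1290-fold lower in bone. Crnn, cornulin of the mucosal surface, was at 1143, 814, 1011 and 1253 CPM in gingiva and at 13.3, 0, 0 and 0 in bone (-8.30 ± 2.48, adjusted p = 0.0197). Cryba2, a crystallin gene, was at 61 to 83.1 CPM in gingiva and at most 0.209 in bone (-10.05 ± 0.68, adjusted p = 1.52e-05). Fabp5, the fatty acid binding protein of keratinocytes, was at 5152 to 6190 CPM in gingiva and at 474, 12.4, 26 and 15 in bone (-5.42 ± 1.36, adjusted p = 0.00914). In Crnn and Fabp5 bone Co 1 was again the bone library nearest to gingiva.

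Retinoid genes, which serve the vitamin A signalling that restrains cornification, gave 7 of 17 higher in gingiva and 1 in bone. Rbp2, a cellular retinol binding protein, was at 81.9, 75.2, 76.6 and 92.4 CPM in gingiva and 6.39, 0, 0.475 and 0 in bone (-5.54 ± 1.53, adjusted p = 0.0141, and 0.0537 without bone Co 3 and 4 together). Crabp2, which carries retinoic acid to the nucleus, differed by -4.05 ± 0.76. Cyp26a1, which degrades retinoic acid, was the member higher in bone.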

How the data were processed

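Bone and gingiva RNA was measured by RNA-seq in 32 libraries, 8 of which enter the comparison. Values are the authors' estimated counts, whole numbers in both deposited tables and used as they stand. The submitters' processing notes name Trimmomatic 0.39, FastQC 0.11.9, HISAT2 2.2.1, StringTie 2.1.7, DESeq2 1.32.0 and GRCm39. Read assignment and strand use are not described in those notes, so near-identical copies such as the globin and Bpifb9 genes are uncertain, and so are overlapping genes.

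The tables were joined on 55359 gene identifiers, of which 52083 matched a symbol in GENCODE M21. Library totals were 39416738 to 70793037 counts. Genes passed edgeR's filterByExpr (minimum count 10, minimum total 15). Bone and gingiva Co libraries alone were fitted with edgeR 4.0.16 in R 4.3.3, with TMM scaling, the quasi-likelihood test and Benjamini-Hochberg adjustment over all genes tested, at 0.05. Where no other setting or treatment is named, the adjusted p of a gene comes from this fit. Log2 differences are bone minus gingiva, errors are standard errors unless given as SD, and intervals are 95%. The script was tested on simulated data. Library measures and count ratios were compared by two-sided exact permutation tests. A group at 0 was given a floor of 3 counts over the group, which covers counting error only. Alternatives were limma 3.58.1 voom, DESeq2 1.42.0, other scalings and filters, and leaving out libraries. Those without bone Co 3 and 4 together, without bone Co 1 and 3 together, and the count ratios without each library were chosen after seeing the data.

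The comparison and the 56 gene lists were chosen with earlier results of these data known. Genes to name were the 12 largest and 12 most abundant calls each way with no overlap and a mean log2 CPM of at least 3 (the largest chosen without nasal gland and olfactory list members, of which 5 higher in bone and 1 higher in gingiva met the filter), per list the members of smallest p (4 at most), and a set of fixed genes. Other list members, among them those given as exceptions, were named after their values were seen. Some genes under these rules are not reported here. Replicate numbers were not shown to pair the tissues.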

Additional observations from a re-analysis of the deposited data

Results flagged for a closer look

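For each named gene and tissue, a library was marked where its gap to the nearest of the other 3 took most of the group's range by Dixon's test. The rule was applied to log2 of CPM plus 0.5. Of 430 groups of 4 gene values 40 were marked (9.3%), and chance marks about 1 in 20. Some of these genes were named after their values were seen, and marks in 1 library may not be independent. The rate is therefore a description and not a test. The values that follow are CPM. In bone Co 1, which is also the bone library with the most keratin counts, the marked values were Crnn at 13.3, Cxcl5 at 35.3, Flg at 6.42, Flg2 at 0.122, Il1a at 9.8, Krt10 at 91.5, Krt5 at 588, Odaph at 40.8, Psmb4 at 92.6, Slpi at 240, Wdr72 at 2.58 and Wnt3a at 0.644. In bone Co 2, the deepest library, the marked values were Sfrp4 at 117 and Slc9b2 at 72.4. In bone Co 3, which holds the most nasal gland counts, the marked values were Blnk at 17.7, Col3a1 at 2750, Dcpp1 at 0.402, Dlx6 at 6.1, Fgfr1 at 171, Ryr1 at 15.9, Sp7 at 88.7 and Tnn at 293. In gingiva Co 1 the marked values were Adipoq at 3.42, Ccl6 at 16.8, Cxadr at 47.1, Lhx8 at 6.12, Odam at 274, Rag1 at 0.237, Tgfb1 at 20.5, Wnt10a at 19.6 and Wnt11 at 12.4. In gingiva Co 2, the gingiva library with the least skeletal muscle, the marked values were Ryr1 at 8.1 and Spink7 at 7.6. In gingiva Co 3 the marked values were Rhag at 0.144, Sost at 1.15 and Tubb1 at 0.192. In gingiva Co 4 the marked values were Car2 at 12.9, Egfr at 92.6, Klf4 at 319 and Pkp3 at 386.

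Library measures were marked in the same way, on their plain values. Transcripts of the olfactory and respiratory list took 0.0934% of the counts in bone Co 3 and 0.0482% in gingiva Co 2, skeletal muscle transcripts 0.0219% in gingiva Co 2, keratins 1.18% in bone Co 1 and genes without a symbol 0.36% in gingiva Co 2. The Csf1 to Il34 count ratio was 5.48 in bone Co 2, and its total of 70793037 counts was the highest. Birc5 had a log2 difference of -0.402 in LiTra mice, with every library on the other side from the untreated mice; the difference between treatments was not tested.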

How the results depend on the processing

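The count of 11454 called genes lay between 7951 (scaling by library totals alone) and 12443 (limma voom), and that of 4-fold calls (3128) between 2432 (adjusted p under 0.01) and 3864 (without bone Co 1 and 3). Leaving out 1 library gave 10253 to 12120 and 2960 to 3552. With the nasal gland and olfactory genes left out, 11468 genes were called, and 98.5% of the 11454 calls were kept. That fit removed the listed genes only. Scaling by totals kept 67.9% of the calls and the housekeeping scaling 76.2%, with 193 of the opposite direction; no other setting tried reversed a call. The housekeeping scaling gave 3700 4-fold calls, 2706 of them higher in bone. In the treated mice scaling by totals gave 4043 calls in Tra (8880 otherwise) and 4600 in LiTra (9159 otherwise). Without 1 library the counts were 7575 to 10856 in Tra, 6967 to 8615 in Li and 8054 to 9998 in LiTra. The cause of these differences was not tested. Among the named genes 2 changed sign with a call on 1 side or the other: under the housekeeping scaling Kitl was 0.33 and Tbp 0.44.

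Same-numbered bone and gingiva libraries correlated at -0.085, 0.11, 0.073 and -0.18 in their deviations, so the numbers were not taken as pairs. A fit with the replicate number as a block called 10181 genes, 2974 of them 4-fold, and 8052, 7632 and 8729 in Tra, Li and LiTra.

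Some list counts moved too: with the replicate block 3 skeletal muscle genes were higher in gingiva in place of 9, and scaling by totals gave 15. Under the housekeeping scaling 12 interferon genes were higher in bone. The precision is limited by the 4 libraries of each tissue.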
